A study of Mus musculus with 16 samples.

Results

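The genes described here supply amino acids and one-carbon units to the cell and charge tRNAs. They are 40 genes chosen by name: the serine synthesis enzymes, enzymes of folate one-carbon metabolism, asparagine, proline and transaminase enzymes, the transulfuration enzymes, amino acid transporters, 4 regulators and 12 cytosolic aminoacyl-tRNA synthetases. Of these, 39 had an Affymetrix probe set annotated to that gene alone, and all 39 passed the filter on dim signals, among 13913 genes tested of 18193 with such a probe set. The exception was Pycr1, an enzyme of proline synthesis, for which no value can be given, and Mars was annotated as Mars1. The arrays measured RNA of smooth muscle cells cultured from mouse aortas freed of adventitia, on a mixed C57BL/6 and 129SvJ background, either wild type or with a knockout of Hey2, a transcriptional repressor downstream of Notch. Serum-starved cultures of both genotypes, treated in parallel, received human PDGF-BB at 5 ng/ml and were harvested after 0, 15, 30, 60, 120, 180, 240 or 480 min, with 1 array for each genotype and time and 16 arrays in all. The question behind the series was which transcripts differ between the genotypes in their response to PDGF.

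Cells make serine from a glycolytic intermediate, and serine passes its side-chain carbon to folate for the synthesis of nucleotides and methyl groups. Transporters in the plasma membrane bring in the amino acids that a cell does not make, and each aminoacyl-tRNA synthetase joins an amino acid to its tRNA for translation. Many of these genes are known targets of ATF4, a transcription factor whose translation rises when uncharged tRNA accumulates or growth factor signalling through mTORC1 is high, and which binds C/EBP-ATF response elements as a dimer with C/EBP proteins. In smooth muscle cells PDGF-BB drives growth and migration, both of which need protein synthesis.

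Promoter sequences show where the core of that response element, TGATGNAA on either strand, lies in some of these genes. RefSeq promoters on GRCm38.p6, running from 250 bases before to 50 bases after the transcription start, were at hand for 29 of the 39 measured genes. The core was found in 9 of the 29 (31.0%) and in 4.51% of 27025 genes with a promoter of the same length. It occurred in 8 of 24 genes that rose after PDGF and in 1 of the other 5, the cystine transporter Slc7a11, a description without a test. The stretches below were chosen because they hold the core upstream of the start in a synthetase, a biosynthetic enzyme or a transporter. Each is written 5′ to 3′ on the strand of its gene, and capitals mark the core or its reverse complement.
Asns, chr6:7693210-7693252, minus strand: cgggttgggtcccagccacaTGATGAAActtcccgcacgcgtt
Got1, chr19:43524680-43524727, minus strand: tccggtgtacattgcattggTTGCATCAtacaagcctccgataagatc
Slc7a11, chr3:50443633-50443699, minus strand: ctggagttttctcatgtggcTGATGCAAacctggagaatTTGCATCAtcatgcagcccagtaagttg
Aars, chr8:111033710-111033757, plus strand: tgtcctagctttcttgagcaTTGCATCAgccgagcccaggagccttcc
Gars, chr6:55037951-55037998, plus strand: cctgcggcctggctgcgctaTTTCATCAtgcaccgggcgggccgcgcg
Tars, chr15:11399659-11399693, minus strand: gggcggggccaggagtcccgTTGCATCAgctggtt

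Slc7a11 held the core once on each strand in the stretch shown. Iars, Yars and Slc1a4 held it across or after the start, and Aars held another copy after the start. The E-box CACGTG, a palindrome bound by Myc among other factors, was found in 5 of the 29 (17.2%) and in 8.09% of all genes with a promoter. These were Aars, Iars and Tars, Aldh18a1 of proline synthesis, and Cbs of transulfuration. A match of letters does not show that a factor was bound.

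A pair of wild-type arrays did not follow the time order of the others. Across genes, change profiles at equal labelled times correlated between genotypes at r = 0.38 to 0.52 for 6 times, but at -0.33 for 60 min and -0.38 for 480 min. The array labelled wild type 60 min lay nearest to the knockout at 480 min (r = 0.57), and the one labelled wild type 480 min lay nearest to the knockout at 60 min (r = 0.46). Labels were kept, and the tests below use the 12 arrays at 0, 15, 30, 120, 180 and 240 min, with the fit to all 16 arrays as labelled beside them. Hey2 itself, on 1 probe set, had signals of 100.7, 102.3 and 113.3 in early wild-type arrays, 14.0 to 19.3 in late ones and 23.3 to 63.3 in the knockout. It therefore checks no genotype label, since the place of the probe set relative to the deletion is unknown here. The labels name no separate animals or isolates, so each p-value rests on the spread among time points within 1 course per genotype. Deposited brightness, as a 2% trimmed mean, ran from 81.0 to 342.5 over the 12 arrays and was evened out by quantile normalization. An untreated time course was not analysed here, so PDGF and time in culture cannot be told apart. In bulk RNA, a change in the mix of cells and a change per cell cannot be told apart either.

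The first comparison asked how these genes changed after PDGF, as the mean at 120, 180 and 240 min (late) minus that at 0, 15 and 30 min (early) over both genotypes. Most of the biosynthetic enzymes and synthetases and 5 of the 10 transporters rose. Of the 39 genes, 29 were higher late (74.4%) and 1 was lower at a limma Benjamini-Hochberg adjusted p under 0.05, the rule for every call below. Over all genes tested, 17.7% were higher and 27% lower. At least 2-fold increases were seen for 11 of the 39 (28.2%) and for 3.72% of all genes. In 16 of the 39 (41%) all 6 late arrays lay above all 6 early ones, against 7% of all genes. The median log2 difference was 0.78 for these genes and -0.07 for all genes. By group, called increases numbered 3 of 3 in serine synthesis, 3 of 4 in folate metabolism, 4 of 4 among asparagine, proline and transaminase enzymes, 0 of 2 in transulfuration, 5 of 10 transporters, 4 of 4 regulators and 10 of 12 synthetases.

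With all 16 arrays as labelled, 17 of the 39 were higher late and 0 lower, against 7.32% of all genes higher. The call was lost there, with a difference still above 0, for 12 of the 29 genes: Psph, Phgdh, Shmt2, Mthfd1l, Aldh18a1, Gpt2, Got1, Slc6a9, Eprs, Sars, Wars and Yars. With the scaling as deposited, 23 were higher and 0 lower, against 7.08% and 1.97% of all genes, none of the 29 changed sign, and the median of all genes moved to 0.15. Another 42 tested probe sets of 25 of these genes could be compared. Of them 38 had the sign of the brightest one used here, 34 of 37 beside a called probe set were called alike, and 0 were called in the opposite direction.

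**Figure D1:**
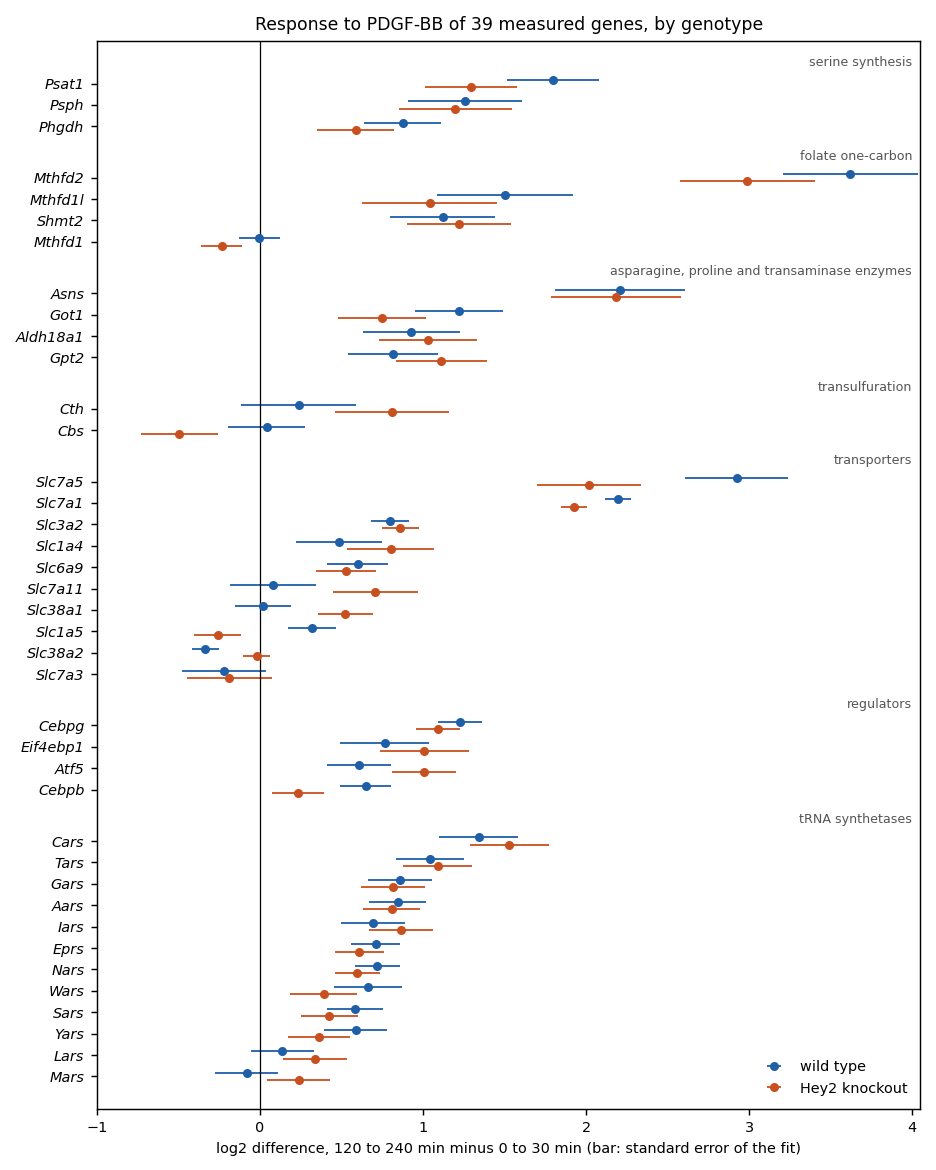
Log2 difference between late (120 to 240 min) and early (0 to 30 min) arrays on the x axis for each of the 39 genes, by group, in wild type (blue) and Hey2 knockout (orange); bars are standard errors of the fit. Mthfd2, Slc7a5, Asns and Slc7a1 lie near or beyond 2 in both genotypes, while Mthfd1, Slc7a3 and Slc38a2 lie at or below 0 in both.

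Measures of RNA quality moved with phase. For the Actb control, the ratio of 3′ to 5′ signal ran from 2.41 to 3.88 early and 1.53 to 1.84 late in wild type, and from 1.95 to 3.71 and 1.54 to 2.44 in the knockout. For Gapdh it was 3.22 to 4.49 and 2.59 to 3.21, and 3.19 to 5.65 and 2.44 to 4.64. The summed signal of 6 leukocyte markers was 59.4 to 126.7 early and 178.4 to 788.6 late. The late sum came mostly from Csf1r, with a log2 difference of 2.96, while Cd68 was at -0.02 and Ptprc, Itgam, Cd3e and Cd79a did not pass the filter. Fibroblast markers summed to 4427 to 6751 early and 3370 to 4445 late, with Pi16 not above the filter. Of 5 fibroblast markers tested 3 were called lower late. Of the 8 smooth muscle markers 6 were called higher late and 0 lower, led by Cnn1 (2.02), Lmod1 (1.21) and Tagln (0.83), with sums of 6555 to 13372 early and 7977 to 16472 late. The part of these measures in the late differences was not tested.

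Serine synthesis rose in all of its enzymes. For Psat1, the transaminase of the second step, wild-type signals were 611, 773 and 525.8 at 0, 15 and 30 min and 1424, 2350 and 3164 at 120, 180 and 240 min. In the knockout they were 721, 956 and 999 and 1449, 2380.2 and 2976. Every late array lay above every early one, and the early knockout values were above the wild type. The log2 difference was 1.55 (SE 0.20, limma adjusted p = 3.22e-05), or 1.13 with all 16 arrays (adjusted p = 0.0455). Psph, the phosphatase that releases serine, had wild-type signals of 300.3, 329.8 and 319.6 early and 448, 821 and 1203 late, and knockout signals of 394, 344 and 334 and 468, 841 and 1419. Both 120 min arrays stood only a little above the early range, and the 240 min arrays were the highest. The difference was 1.23 (SE 0.25, limma adjusted p = 0.00109), a call lost with all 16 arrays (0.94, adjusted p = 0.121). Phgdh, the entry enzyme of the pathway, rose by 0.73 (SE 0.17, limma adjusted p = 0.00266), and its 4 probe sets had differences of one sign.

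In mitochondrial folate metabolism the 3 enzymes that turn serine into formate rose, and the cytosolic enzyme did not. Shmt2, which moves the serine carbon to folate in mitochondria, had wild-type signals of 704, 659 and 575 early and 784, 1625 and 2171 late. Knockout signals were 539, 550.3 and 464 and 775, 1252 and 1817. Early and late arrays did not overlap, and the rise lay mainly after 120 min. The log2 difference was 1.17 (SE 0.23, limma adjusted p = 0.000825; 16 arrays 0.91, adjusted p = 0.0978).

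Mthfd2, the mitochondrial dehydrogenase and cyclohydrolase, changed more than any other gene of the set. Its wild-type signals were 159, 123 and 194 early and 984, 2375 and 3270.2 late, and its knockout signals 205, 212 and 135 and 784, 1696 and 2374. The lowest late array stood well above the highest early one, and the values grew at each late step. The rise was 9.88-fold on the offset scale (log2 difference 3.30, SE 0.29, limma adjusted p = 1.23e-06; 2.62 with all 16 arrays, adjusted p = 0.00817). Mthfd1l, which releases formate, had wild-type signals of 266, 320.4 and 314 early and 468, 866 and 1543 late and knockout signals of 298, 256 and 235 and 271, 574 and 1025. The knockout array at 120 min was still within its early range. Its difference was 1.27 (SE 0.29, limma adjusted p = 0.003), not called with all 16 arrays (0.92, adjusted p = 0.189). Mthfd1, the cytosolic trifunctional enzyme, differed by -0.12 (SE 0.09, limma adjusted p = 0.307).

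Asparagine synthetase, Asns, had wild-type signals of 429.6, 476.9 and 461 early and 1199, 2138 and 3724 late. In the knockout they were 209, 239 and 248 early and 541, 1147 and 1957 late. The late arrays lay above all early ones even though each knockout value was below the wild type of the same time. The rise was 4.58-fold (log2 difference 2.20, SE 0.28, limma adjusted p = 3.09e-05; 1.75 with all 16 arrays, adjusted p = 0.0256), and the other probe set of the gene was called in the same direction. Gpt2, a mitochondrial alanine transaminase, had wild-type signals of 185, 185 and 178 early and 183, 381 and 487 late and knockout signals of 291, 293 and 251 and 443, 692 and 723. At 120 min the wild-type array was at its early level and the knockout array was above all of its early ones. The difference was 0.96 (SE 0.20, limma adjusted p = 0.00123; 16 arrays 0.68, adjusted p = 0.0903). Got1, the cytosolic aspartate transaminase, rose by 0.98 (SE 0.19) and Aldh18a1, the first enzyme of proline synthesis from glutamate, by 0.98 (SE 0.21; limma adjusted p at most 0.00185 for both).

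Among the transporters, Slc7a1 had the smallest spread relative to its change. This carrier of arginine and lysine had wild-type signals of 1036, 1095 and 1104 early and 4633, 5058 and 5213 late, with 1005, 988 and 1134 and 3784, 3904 and 4239 in the knockout. It had reached nearly its full level by 120 min in both genotypes, and the phases did not overlap. The log2 difference was 2.06 (SE 0.06, limma adjusted p = 3.43e-11), or 1.55 with all 16 arrays (adjusted p = 0.00527). Slc7a5, which exchanges large neutral amino acids such as leucine, had wild-type signals of 159, 189 and 203 early and 834, 1682 and 2030.4 late. Its knockout signals were 239, 235 and 243 early and 581, 1110 and 1468 late. The wild type was below the knockout in every early pair and above it in every late pair. The difference was 2.47 (SE 0.22, limma adjusted p = 1.52e-06; 1.84 with all 16 arrays, adjusted p = 0.0267).

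Slc3a2, the heavy chain that carries Slc7a5 and Slc7a11 to the plasma membrane, rose by 0.83 (SE 0.08, limma adjusted p = 3.05e-06). Slc1a4, an exchanger of alanine, serine and cysteine, rose by 0.64 and Slc6a9, a glycine transporter, by 0.56 (limma adjusted p = 0.0124 and 0.00311). Slc38a2, a sodium-coupled carrier of small neutral amino acids, was the only gene called lower (-0.18, SE 0.06, limma adjusted p = 0.0222). Its difference was above 0 with the scaling as deposited, at 0.07, and it was not called with all 16 arrays. The dimmer probe sets of Slc38a2 were at -0.85 (limma adjusted p = 1.72e-05) and 0.06 (not called). The other transporters were not called. Their differences were 0.27 for Slc38a1, 0.39 for the cystine carrier Slc7a11, 0.03 for the glutamine exchanger Slc1a5 and -0.20 for Slc7a3, a relative of Slc7a1. The transulfuration enzymes Cth (0.52, limma adjusted p = 0.104) and Cbs (-0.23, 0.298), which make cysteine from homocysteine, were not called either. These values are of the brightest probe set of each gene. The dimmer ones of Slc38a1 (0.52, limma adjusted p = 0.00108) and Cbs (0.79, limma adjusted p = 0.0295) were called higher. Both Cbs probe sets were dim, with mean signals of 37.4 and 29.3. Slc7a11 and Slc7a3 were dim too, with mean signals of 20.5 and 30.3.

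The regulators were all called higher, by smaller amounts than the leading enzymes. Cebpg, a bZIP partner of ATF4, had wild-type signals of 478, 441 and 480.3 early and 913, 1203 and 1201 late and knockout signals of 527, 525 and 492 and 917, 1129 and 1290.2. The genotypes overlaid each other and the phases did not overlap. The difference was 1.16 (SE 0.10, limma adjusted p = 7.01e-07), or 0.96 with all 16 arrays (adjusted p = 0.00288). Eif4ebp1, an inhibitor of cap-dependent translation, rose by 0.89 (SE 0.19), the bZIP factor Atf5 by 0.81 (SE 0.14) and Cebpb, another bZIP factor, by 0.44 (SE 0.11; limma adjusted p at most 0.0054 for these).

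Of the 12 cytosolic synthetases 10 rose, and all 12 had differences above 0 with a median of 0.66. Cars, the cysteinyl enzyme, had wild-type signals of 179, 205 and 209 early and 361, 551 and 655 late. Knockout signals were 157, 149 and 176 early and 312, 523 and 641 late. All late arrays were above the early ones and the genotypes ended close together at 240 min. The difference was 1.44 (SE 0.17, limma adjusted p = 1.76e-05; 1.10 with all 16 arrays, adjusted p = 0.0178). Tars, the threonyl enzyme whose promoter is shown above, had wild-type signals of 1159.7, 1149.5 and 1174 early and 1672, 2645 and 3102 late, against 895, 898 and 831 and 1356, 1947 and 2456 in the knockout. The knockout was lower at each time and the phases did not overlap. Its difference was 1.06 (SE 0.15, limma adjusted p = 6.2e-05; 0.85 with all 16 arrays, adjusted p = 0.0212). The enzymes for glycine (Gars, 0.84), alanine (Aars, 0.83), isoleucine (Iars, 0.78), glutamate and proline (Eprs, 0.66) and asparagine (Nars, 0.66) followed. Those for tryptophan (Wars, 0.53), serine (Sars, 0.50) and tyrosine (Yars, 0.47) rose less, and those for leucine (Lars, 0.24) and methionine (Mars, 0.08) were not called (limma adjusted p = 0.188 and 0.687).

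**Figure D2:**
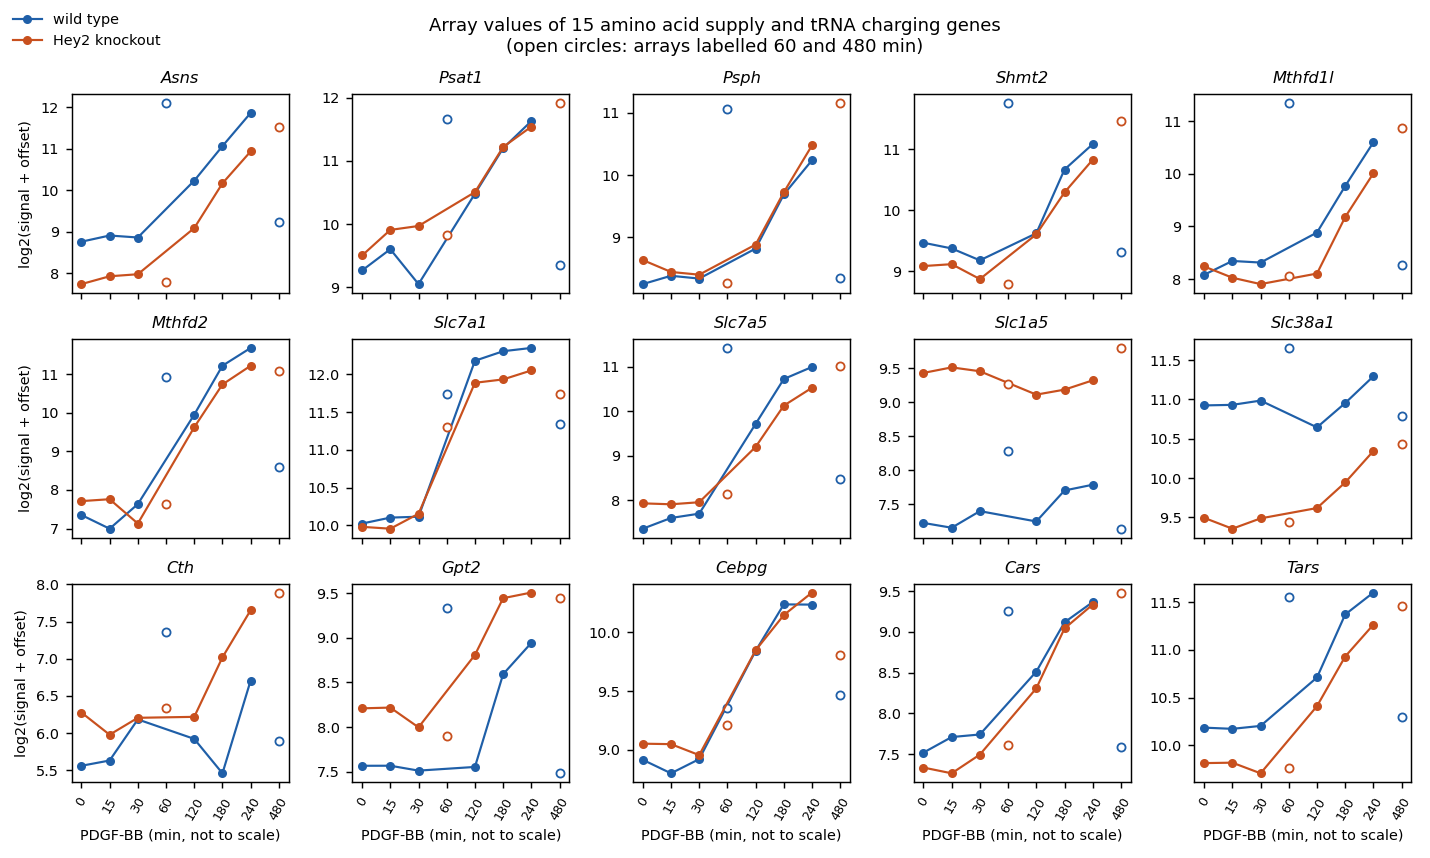
Log2(signal + offset) on the y axis against labelled time on the x axis (evenly spaced, not to scale) for the 15 genes whose values are given array by array, in wild type (blue) and Hey2 knockout (orange), 1 array per point. Open circles mark the arrays labelled 60 and 480 min, where the wild-type points stand high at 60 min and low at 480 min for genes such as Asns (4374 and 595 as signals), the reverse of the knockout (218 and 2950).

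Timing was much alike among the rising genes. The median change of the 39 genes against 0 min in wild type was 0.03, 0.05, 0.36, 0.90 and 1.15 at 15, 30, 120, 180 and 240 min. In the knockout it was 0.05, -0.01, 0.32, 0.91 and 1.14 at the same times, -0.01 at 60 min and 1.45 at 480 min. Values therefore stood near the start for 30 min and grew from 120 to 240 min. Of the 29 rising genes, 27 increased at each step from 120 through 180 to 240 min in both genotypes, the exceptions being Cebpb and Cebpg. In the knockout 23 of the 29 were higher at 480 than at 240 min, and Mthfd2, Slc7a1, Slc3a2, Gpt2, Cebpb and Cebpg were not. Slc7a1 was early: its knockout signal was already 2530.4 at 60 min, a log2 change of 1.33 against 0 min. Cebpb peaked at 120 min in wild type (5021, 3949 and 3429 at 120, 180 and 240 min after 2296, 2308 and 3329 early). These steps rest on 1 array each and carry no test.

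**Figure D3:**
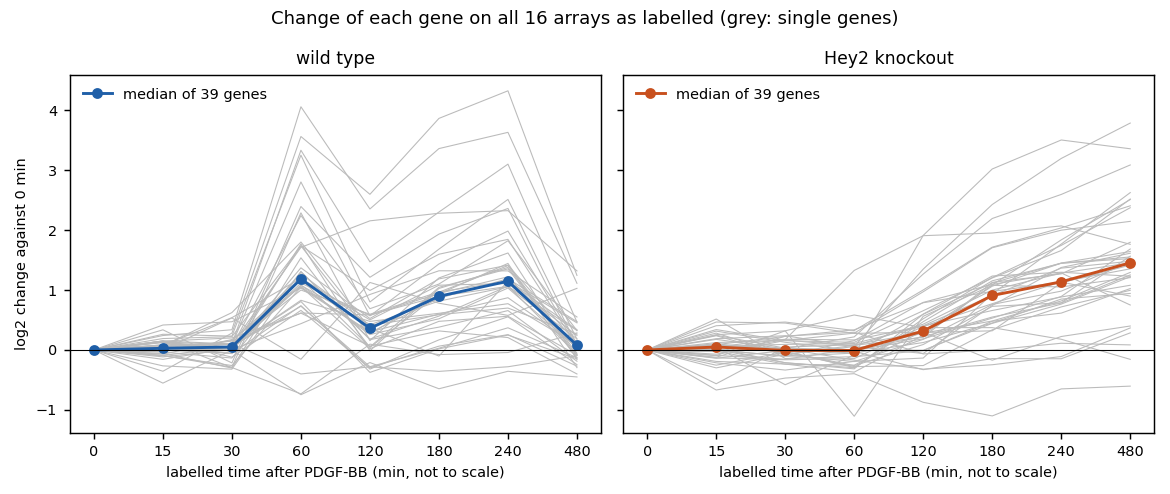
Log2 change of each of the 39 genes against 0 min (grey lines) and their median (coloured) on the y axis against labelled time on the x axis (evenly spaced, not to scale), in wild type (left) and Hey2 knockout (right), 1 array per time. The knockout median climbs from -0.01 at 60 min to 1.45 at 480 min, while the wild-type median is 1.19 on the array labelled 60 min and 0.08 on the one labelled 480 min.

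The second comparison asked whether the response differed between the genotypes. In wild type 28 of the 39 genes were higher late and 1 lower, where 15.8% of all genes were higher. In the knockout 22 were higher and 0 lower, where 9.02% of all genes were higher. With all 16 arrays as labelled these increases were 3 and 2, where 1.22% and 0.35% of all genes were higher, and with the scaling as deposited 13 and 6, where 3.78% and 1.45% were. Without the 180 min arrays the wild-type count was 18 (12.1% of all genes), and without the 120 min arrays 31 (18.2%). The knockout count was 13 without the 0 min arrays, 13 without the 15 min arrays and 14 without the 180 min arrays (5.79%, 5.88% and 5.86% of all genes), and 32 without the 120 min arrays (11.8%). The difference in response itself was called for 0 of the 39 genes by limma, with 3 at an unadjusted p under 0.05, while 0.791% of all genes were called. Those 3 were Slc1a5, Slc38a2 and Slc7a1, and they are not the 3 called with blocks below. Across the 39 genes the wild-type and knockout changes correlated at r = 0.90, and across all genes at 0.75, a description across genes that share arrays.

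With the time-matched arrays as blocks, 3 of the 39 genes and 4.27% of all genes were called for a difference in response. Slc7a5 rose by 2.92 in wild type and by 2.02 in the knockout, a difference of -0.90 (SE 0.14, limma adjusted p = 0.00353). The values by array given above show this crossing, with the wild type lower early and higher late. Slc38a1, a glutamine carrier, went the other way (0.51, SE 0.10, limma adjusted p = 0.0146), with changes of 0.02 and 0.52. Cebpb changed by 0.65 and 0.23 (difference -0.41, SE 0.10, limma adjusted p = 0.0416). Without the block none of them passed, at limma adjusted p = 0.481, 0.456 and 0.53. Leaving out the 120 min arrays, Slc7a5 was called without the block too, at -0.91 (limma adjusted p = 0.0444). With the arrays of any other time left out it was not called, at limma adjusted p = 0.422 to 0.773.

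The third comparison set the knockout against the wild type at equal times. Of the 39 genes 8 were higher in the knockout (20.5%) and 15 lower (38.5%), against 21.6% and 20.9% of all genes. Most of these differences were small, and 1 gene on each side differed at least 2-fold. On the higher side that was 2.56% of these genes, against 5.35% of all genes. The median was -0.11 for these genes and -0.02 for all genes. Knockout values lay above the wild type at all 6 times for 8 genes and below it for 13. These counts were not compared with all genes, so they do not set the 39 genes apart. With all 16 arrays as labelled, 2 were higher and 2 lower, against 16.6% and 14.1% of all genes. Without time as a block 4 were higher and 6 lower, against 19.6% and 18.2%, and without the 15 min arrays 5 were higher, against 19.9%. With the scaling as deposited, 3 were higher and 0 lower, against 12.6% and 1.34%, the median of all genes was 0.38, and 12 of the 15 lower genes took a value above 0. Relative to that median, all 15 lower genes remained below and all 8 higher genes above. Another 24 probe sets stood beside a called one, of which 9 were called alike and 0 in the opposite direction. Of all 42 other tested probe sets, 31 had the sign of the brightest one.

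Markers of cell types differed between the genotypes as well. All 8 smooth muscle markers passed the filter, and their summed signal was 12416 to 16472 in wild type and 6555 to 8620 in the knockout, and that of 6 mesothelial markers was 744 to 868 and 11644 to 13055. Endothelial markers summed to 78.4 to 101.9 and 57.2 to 77.4, with Pecam1, Cdh5, Tie1 and Vwf not above the filter. The leukocyte sums were 59.4 to 397.0 and 89.3 to 788.6, and the fibroblast sums 3370 to 6751 and 3645 to 4979. Single fibroblast markers differed in opposite directions under these sums: Lum by -3.46, Thy1 by 3.13, Serpinf1 by 3.0 and Dcn by 0.51 were called, and Pdgfra (-0.26) was not. On the arrays used for the tests, Thy1 signals were 7.1 to 26.6 in wild type and 126.4 to 210.8 in the knockout. Those of Serpinf1 were 0.7 to 29.1 and 105.1 to 146.3. Most wild-type signals of Thy1 and Serpinf1 lay under the filter, which both genes passed through the knockout. Their direction is clear, but the sizes of these differences depend on the offset. The part of the cell mix in the genotype differences was not tested.

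The largest genotype difference was that of Slc1a5, the sodium-dependent exchanger that takes up glutamine. Its wild-type signals were 145, 138 and 164 at 0, 15 and 30 min and 147, 203 and 216 at 120, 180 and 240 min, and its knockout signals 687, 727 and 699 and 549.6, 579 and 637. The genotypes did not overlap, and the arrays labelled 60 and 480 min, with 306 and 136 in wild type and 610.2 and 888 in the knockout, kept the same order. The knockout was 3.79-fold higher (log2 difference 1.92, SE 0.12, limma adjusted p = 2.01e-07; 1.90 with all 16 arrays, adjusted p = 1.37e-05). Its dimmer probe set was higher too.

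Slc38a1, another route for glutamine, was lower in the knockout. Signals in wild type were 1937, 1946 and 2021 early and 1595, 1978 and 2505 late, and in the knockout 716, 650.3 and 713 and 781, 979.9 and 1294. Again the genotypes did not overlap on the 12 arrays. The difference was -1.25 (SE 0.09, limma adjusted p = 7.92e-07; -1.26 with all 16 arrays, adjusted p = 0.000202). With the scaling as deposited it was -0.83, not called (limma adjusted p = 0.105). Slc38a2, its close relative, was also lower (-0.35, SE 0.06, limma adjusted p = 0.000977), and at -0.00 with the scaling as deposited. Among other transporters, Slc6a9 was higher (0.36), while Slc3a2 (-0.20) and Slc7a1 (-0.19) were lower by small amounts and turned to 0.21 and 0.25 with the scaling as deposited. The other tested probe sets of Slc6a9 (-0.04) and Slc7a1 (0.14) had the opposite sign and were not called. Slc7a5 (-0.07), Slc1a4 (-0.11), Slc7a3 (-0.01) and Slc7a11 (-0.49) were not called.

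Asns was lower in the knockout by -0.98 (SE 0.07, limma adjusted p = 4.3e-07) and at each of the 6 times, from 429.6 against 209 at 0 min to 3724 against 1957 at 240 min. The size was the same with all 16 arrays, -0.98, but the call was lost (limma adjusted p = 0.172), and it was also lost with the scaling as deposited (-0.53, adjusted p = 0.355). Gpt2 was higher in the knockout at all 6 times, by 0.74 (SE 0.11, limma adjusted p = 0.000152), or 0.62 with all 16 arrays (adjusted p = 0.125). Cth, which cleaves cystathionine to cysteine, had wild-type signals of 42.3, 44.7 and 67.9 early and 55.8, 39.1 and 99.7 late and knockout signals of 72.7, 58.2 and 69 and 69.6, 125 and 197. The knockout was the higher of each pair, though the groups overlapped. Its difference was 0.65 (SE 0.19, limma adjusted p = 0.0147), not called with all 16 arrays (0.61, adjusted p = 0.13) or without the block (adjusted p = 0.0554). Cbs, the enzyme before it, was not called (-0.42).

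In folate metabolism the genotypes differed for 3 of the 4 enzymes. Mthfd1 stood 0.36 above the wild type in the knockout (SE 0.07; adjusted p = 0.00133 by limma). Shmt2 (-0.27) and Mthfd1l (-0.42) were lower, both not called without the block (limma adjusted p = 0.373 and 0.283) and turning above 0 with the scaling as deposited, and Mthfd2 was not called (-0.11). No serine synthesis enzyme was called. Of the regulators Cebpb was higher (0.28) and Atf5 lower (-0.38; 0.06 as deposited), while Cebpg and Eif4ebp1 were not called.

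Of the 12 synthetases 7 were called lower in the knockout and 2 higher, where 20.9% and 21.6% of all genes were. Their median was -0.17, and the 7 all turned above 0 with the scaling as deposited. Eprs (-0.40), Tars (-0.38), Iars (-0.28), Gars (-0.25), Lars (-0.20), Aars (-0.15) and Nars (-0.13) were lower. As deposited they reached at most 0.28, below the median of 0.38 over all genes. The other tested probe sets of Eprs were at -0.08 and 0.03 and not called. Those of Iars (-0.61) and Nars (-0.37) were called lower, and that of Aars (-0.16) was not called. Wars (0.26) and Sars (0.19) were higher. The other probe sets of Wars, at 0.13, 0.02 and -0.09, and of Sars, at 0.13, were not called. With all probe sets tested, the brightest one of Sars was not called either (limma adjusted p = 0.0522). Cars, Mars and Yars were not called.

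**Figure D4:**
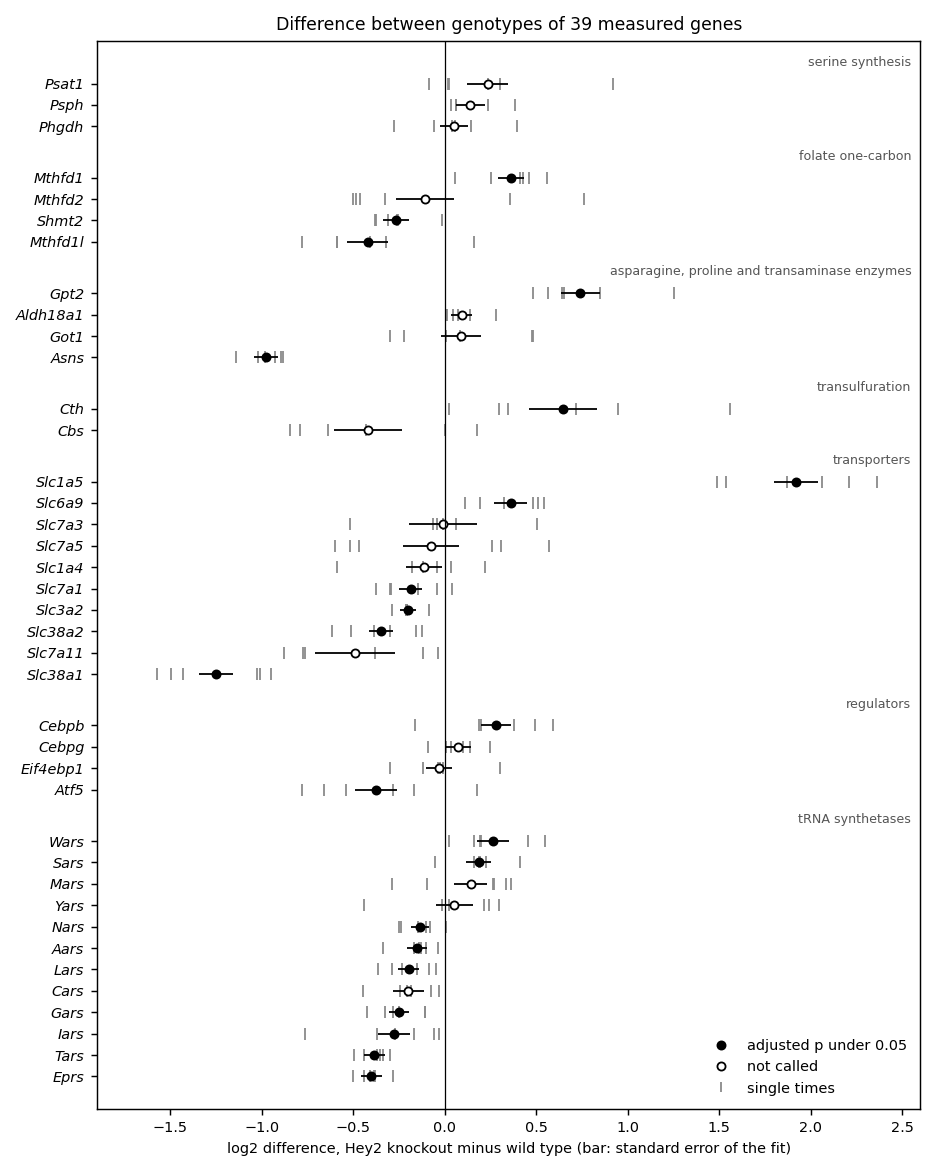
Log2 difference between Hey2 knockout and wild type on the x axis for each of the 39 genes, by group, over the 6 times; filled circles passed the limma adjusted p of 0.05, bars are standard errors of the fit and grey ticks are the differences at single times. Slc1a5 lies at 1.92 and Slc38a1 at -1.25 with all ticks on one side; 12 of the 15 genes called lower turn above 0 with the scaling as deposited.

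Related genes outside the set were followed in 5 lists. Of 10 further cytosolic synthetases and subunits of their complex, 5 rose late (50%) and 2 fell (20%), where 17.7% of all genes rose and 27% fell, with a median of 0.32. Eef1e1, a scaffold subunit of the multisynthetase complex, rose by 1.24 (SE 0.17, limma adjusted p = 4.89e-05), the arginyl enzyme Rars by 0.38, and the scaffold Aimp1 fell by 0.24, while the lysyl enzyme Kars was at 0.24 and not called. With the scaling as deposited Aimp1 was at 0.13. Between genotypes, Eef1e1 (-0.57) and Kars (-0.38; 0.06 as deposited) were lower and Rars (0.26) and Aimp1 (0.49) higher. Of 16 mitochondrial synthetases, which serve the translation of the mitochondrial genome, 2 rose (12.5%) and 5 fell (31.2%), shares near those of all genes, with a median of -0.24. Lars2 was at -0.88 (SE 0.10), Iars2 at -0.51 (SE 0.07) and Yars2 at 0.67 (SE 0.14; limma adjusted p at most 0.00162), while Vars2 was not called late (-0.38) and was lower in the knockout (-0.61).

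Of 17 other amino acid transporters 4 rose (23.5%) and 5 fell (29.4%), again near all genes, with a median of -0.14. Slc7a2, a cationic carrier related to Slc7a1, differed between genotypes by -1.87 (SE 0.12, limma adjusted p = 2.61e-07), Slc7a7, the light chain of a cationic exchanger, by -0.81, and Slc36a4 by 0.67. Slc38a10 fell late by 0.41. Of 22 other enzymes of amino acid and folate metabolism 5 rose (22.7%) and 7 fell (31.8%), also near all genes, with a median of 0.01. Gldc, the decarboxylase of glycine cleavage, was lower in the knockout by -3.20 (SE 0.24, limma adjusted p = 8.67e-07). On the arrays used for the tests its signals were 57.6 to 76.1 in wild type and 1.2 to 9.3 in the knockout. All of these knockout signals lay under the filter of 16, so the gene passed it through the wild type alone. Most also lay under the offset of 4.856, so the direction is clear but the size of the Gldc difference depends on the offset. The mitochondrial branched-chain transaminase Bcat2 differed by -1.28, the Mthfd2 relative Mthfd2l by -0.67 and the mitochondrial aspartate transaminase Got2 by 0.36. Bcat1, the cytosolic branched-chain transaminase, chosen after its values were seen, rose late by 3.0 (SE 0.51, limma adjusted p = 0.000315).

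Of 18 genes of the ATF4 pathway and of amino acid sensing 9 rose (50%) and 4 fell (22.2%), with a median of 0.40. Atf4 itself rose by 1.04 (SE 0.12, limma adjusted p = 9.29e-06), with wild-type signals of 2378, 2834 and 3843 early and 5567, 6174 and 6355 late and knockout signals of 2074, 1998 and 2988 and 4777, 4402 and 5236. Trib3, a pseudokinase induced by ATF4, rose by 2.99 (SE 0.43), Chac1, which degrades glutathione, by 2.45 (SE 0.25), Myc by 1.91 (SE 0.22) and the bZIP factor Ddit3 by 1.25 (SE 0.16; limma adjusted p at most 7.93e-05). In the knockout Myc (-0.80) was lower, as were Atf4 (-0.34) and Ddit3 (-0.39), which stood at 0.04 and 0.05 with the scaling as deposited. Chac1 was higher (0.82), and Trib3 was not called (-0.10).

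Calls on these related genes depended on the scaling. Of the 22 genes named from the lists, 18 were called between genotypes, and 4 of them (Gldc, Slc7a2, Slc36a4 and Chac1) were called with the scaling as deposited. In the late comparison 18 were called, of which Atf4, Ddit3, Trib3, Chac1, Myc, Eef1e1 and Bcat1 stayed. Among those lost, the late difference of Slc38a10 was -0.07 as deposited and that of Iars2 -0.21. Between genotypes Myc was then at -0.36, Slc7a7 at -0.35, Mthfd2l at -0.22, Vars2 at -0.19, Eef1e1 at -0.14 and Bcat2 at -0.81, and upward differences were larger, at 0.68 for Rars, 0.94 for Aimp1 and 0.78 for Got2.

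**Figure D5:**
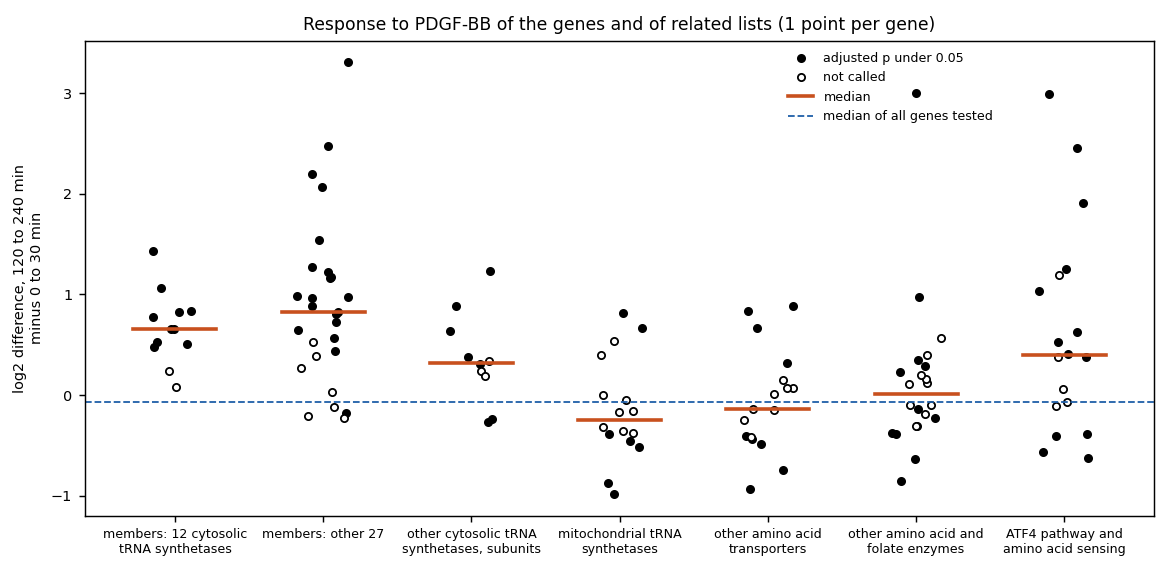
Log2 difference between late (120 to 240 min) and early (0 to 30 min) arrays over both genotypes on the y axis, 1 point per gene, for the 12 synthetases and the other 27 measured genes of the set and for the 5 related lists on the x axis; filled points passed the limma adjusted p of 0.05, orange bars are medians and the dashed line is the median of all genes (-0.07). The synthetases of the set have a median of 0.66, the further cytosolic ones 0.32 and the mitochondrial ones -0.24.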

How the data were processed

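RNA of 16 cultures was measured on Affymetrix mouse arrays. The deposited values are linear signal intensities for 45101 probe sets. MAS5 made them, per the submitters' processing notes, with version and scaling target not given in the sources used here. Probe sets with 1 gene symbol in the platform annotation (34945) were used, and those annotated to several genes (932) or to no gene (9160) were not. Signals were quantile normalized over 16 arrays and transformed as log2(signal + 4.856), the 20th percentile, so differences of dim genes are understated. To be tested, a probe set needed a signal above 16, the 40th percentile, on 3 or more of 12 arrays, and the brightest represented its gene.

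Models were fitted with limma (3.58.1, R 4.3.3), an intensity trend in the moderated variance, and Benjamini-Hochberg adjustment over all genes at 0.05. The genotype fit had time as a factor, so arrays of equal time formed blocks, as the series' design says that both genotypes were treated in parallel (5 residual degrees of freedom). Time comparisons used 4 cells of genotype and phase (8 residual degrees of freedom). The fits were checked on simulated data. The number of arrays limits precision. Alternatives were tried for the scaling, the offset, the filter, the choice of probe set, the variance model, all 16 arrays, each time left out, the block, the baseline and a 2-fold threshold. The genes and lists were chosen with earlier results of these data known. Genes are described array by array where a call reached a log2 difference of 1 after PDGF or 0.5 between genotypes. From each related list up to 4 called genes with the smallest p, and Atf4, Ddit3, Trib3 and Myc, are named.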

Additional observations from a re-analysis of the deposited data

How the results depend on the processing

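With the scaling as deposited, genotype differences were called higher for 3 and lower for 0 genes, late differences lower for 0, and late increases for 13 genes in wild type (0 lower; 3.78% of all genes higher) and 6 in the knockout (1.45%). There, among the genes described array by array, the called genotype differences of Mthfd1l (0.012), Shmt2 (0.16), Slc7a1 (0.25) and Tars (0.067) reversed. With all 16 arrays as labelled, genotype counts were 2 and 2, late counts 17 and 0, and late increases 3 in wild type (0 lower) and 2 in the knockout. Without the replicate block, 4 genes were higher and 6 lower between genotypes, and with the replicate block 1 was higher and 2 lower in the difference in response. The median of probe sets gave 5 higher between genotypes and 1 lower late in the knockout, where 2704 and 1053 of 13913 genes were. A fit without the intensity trend gave 5 higher between genotypes and 0 lower late, where 2702 and 3566 of all genes were. The baseline of 0 min gave 0 lower late, against 2907 of all genes. At least 2-fold, 1 gene was higher (5.35% of all genes) and 1 lower between genotypes, and 11 (3.72% of all genes) and 0 late. Leaving out the arrays of 1 time gave 5 to 8 higher and 11 to 13 lower between genotypes. Over all genes, 2616 to 2745 were higher and 2559 to 2652 lower there, of 13652 to 13693 tested. Late, 27 to 32 were higher and 0 to 1 lower, against 1966 to 2729 and 2892 to 3878 of all genes. In wild type 18 to 31 were higher and in the knockout 13 to 32, against 1647 to 2493 and 793 to 1609 of all genes. For the difference in response 0 to 1 was lower, against 0 to 129 of all genes. The causes were not tested. For the genes described array by array, values under alternatives were set against the main fit. Of these values, 1162 kept the call or its absence, 82 lost the call, 12 gained it and 4 called ones changed sign. A gene not called could change sign and still count as kept. Cars did so between genotypes, at -0.20 in the main fit and 0.24 with the scaling as deposited. The number of arrays limits all of these.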

Other observations

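Signals on the arrays labelled 60 and 480 min, outside the 12 arrays used for the tests, are given here as values. Mthfd2 was at 1926 and 382 in wild type and 193 and 2144 in the knockout. For Psat1 the wild-type values were 3235 and 646 and the knockout values 905 and 3846. Slc7a5 stood at 2731 and 350, against 279 and 2066. Slc7a1 was raised on all of these arrays above its early range, at 3408 and 2593 in wild type and 2530.4 and 3424 in the knockout. Cebpg was at 650.2 and 703, and at 587 and 889. Tars was at 3007 and 1249.7 in wild type and 863 and 2806 in the knockout.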
